A study of Mus musculus with 16 samples.

Results

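Collagens are the 44 genes of the count table whose symbol is Col, a number, the letter a and a number, out of 24421 gene symbols. PolyA RNA was sequenced from lumbar dorsal root ganglia, which hold sensory neurons and their glia, taken from C57BL/6 mice at E13.5. There are 4 groups of 4 libraries: importin α3 knockouts (KO_alpha3, gene Kpna4), importin β1 3′UTR knockouts (KO_beta, gene Kpnb1, its 3′ untranslated region removed), wild types labelled with the β1 line (WT_beta) and wild types labelled with the α3 line (WT_alpha3). Each library is named by its group and the number in its title. Per the design text the 8 wild types served both projects because of a gender effect, so both knockouts are set against the same 8 libraries. The labels do not say whether each library is a separate embryo, and name neither a litter nor a promoter or Cre; p-values therefore measure the spread between these libraries, which may be technical in part.

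A collagen molecule is built of 3 chains wound into a triple helix, and each gene encodes 1 kind of chain. Fibrillar collagens form the cables of connective tissue, network collagens such as type IV form the sheet of basement membranes around Schwann cells, vessels and the ganglion surface, and fibril-associated collagens decorate the cables. In peripheral nerve, Schwann cells and their precursors lay down a basement membrane, while fibroblasts of the nerve sheaths and meninges make most of the fibrils.

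The members were put in 6 classes from textbook knowledge: 8 interstitial fibrillar chains, 7 chains of cartilage, 9 of basement membranes, 10 of beaded filaments and hexagonal networks, 6 fibril-associated chains outside cartilage and 4 transmembrane chains. Library totals ran from 19682595 to 26873361 counts. Levels are given as CPM, counts per 1000000 after scaling between libraries. Kpna4 lay at 0.619 to 1.13 CPM in KO_alpha3, against 69.5 to 81.4 CPM in the 8 wild types. Kpnb1, of which the labels give only the untranslated region as deleted, lay at 514 to 564 CPM in KO_beta, against 390 to 531 CPM in the 8 wild types. Y-linked genes summed to over 50 CPM in 2 KO_alpha3, 4 KO_beta, 0 WT_beta and 4 WT_alpha3 libraries. No library was a copy of another: between libraries of 1 group, chi-square over its degrees of freedom was 6.30 to 137. All 15 sensory neuron markers and all 12 glial markers looked for were detected, with sums of 8826 to 17131 CPM and 1440 to 2427 CPM.

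Libraries differed in how far the embryo's red cells had gone through the switch from the early embryonic globin Hbb-bh1 to the later one Hbb-y. The log2 ratio of their counts ran from -7.00 in KO_beta 411, the latest by this measure, to -3.71 in KO_alpha3 81, the earliest. In the order of the ratio, 11 libraries lay between -7.00 and -6.03, and 5 lay apart between -5.17 and -3.71: WT_beta 399, KO_alpha3 42, WT_alpha3 45, WT_alpha3 79 and KO_alpha3 81. They are called the 11 later and the 5 earlier libraries. KO_beta has no library among the 5 earlier ones, so the lines do not span the same range: the ratio ran from -6.81 to -3.71 in KO_alpha3, -7.00 to -6.06 in KO_beta, -6.89 to -5.17 in WT_beta and -6.93 to -4.10 in WT_alpha3.

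The ganglia held a full set of collagen transcripts, led by basement membrane and fibrillar chains. Per kilobase of the principal transcript, the mean over 16 libraries was 139 CPM for Col4a1, 117 CPM for Col1a2, 104 CPM for Col3a1, 91.2 CPM for Col1a1 and 84.1 CPM for Col4a2. These 5 chains of types IV, I and III took 59.8% of all collagen counts. Next per kilobase came Col26a1 with 66.9 CPM and Col18a1 with 56.0 CPM, and Col28a1 reached 21.5 CPM. These values and their order depend on the length taken. The principal transcript has 5348 bases for Col1a2 and 2724 for Col26a1, whereas all annotated exons together have 12426 and 8176. At the low end stood Col17a1, the hemidesmosome collagen of skin, with 0.12 CPM per kilobase, Col10a1, the collagen of hypertrophic cartilage, with 0.07, Col6a4 with 0.06 and Col6a5 with 0.04. Col10a1 had 79 counts over all 16 libraries and was the 1 member that did not pass the filter on low counts, so 43 were tested.

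**Figure D1:**
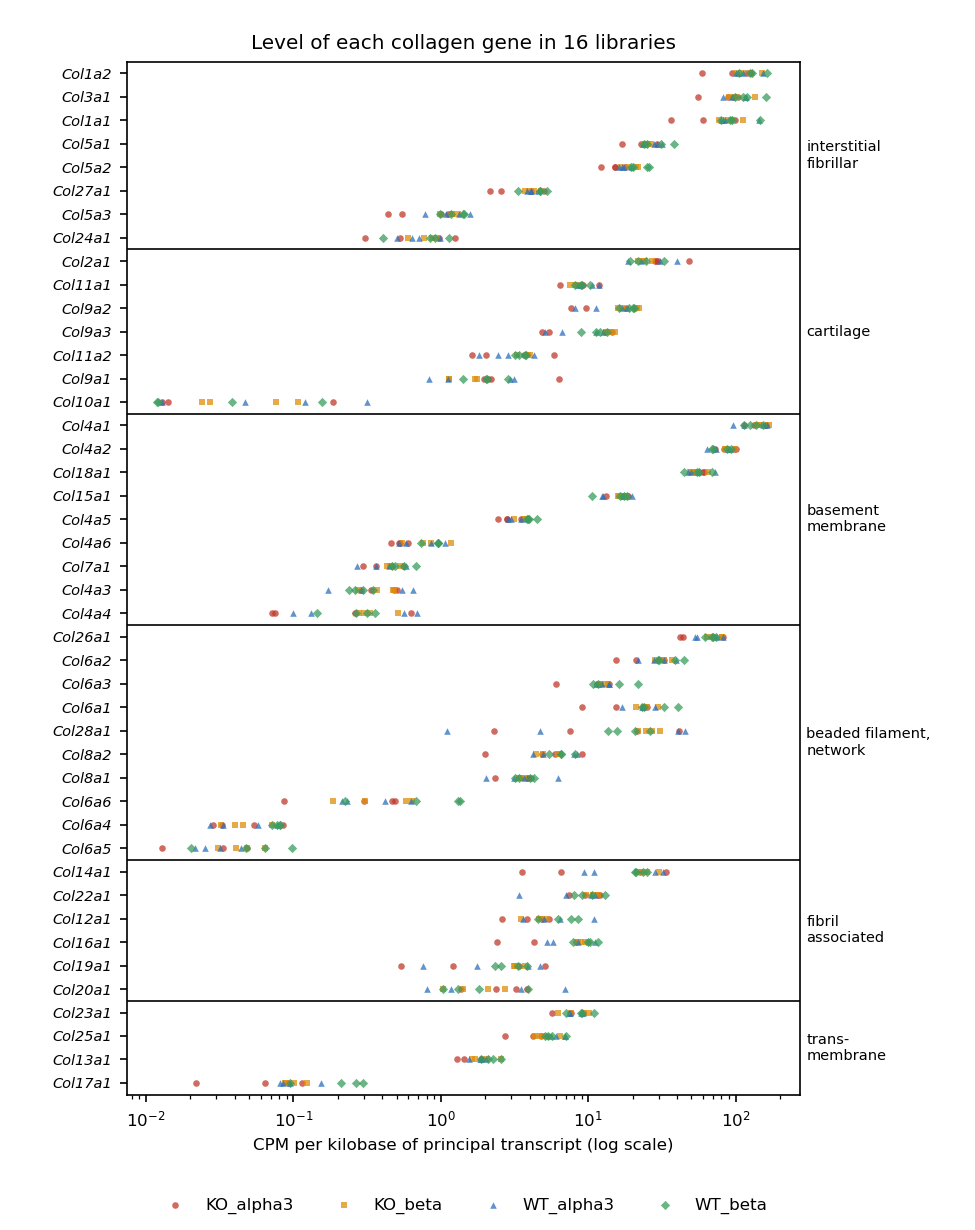
Level of each of the 44 collagen genes in CPM per kilobase of principal transcript on a log axis, 1 point per library, colour and shape by group, rows grouped by class; values of 0 (Col10a1 and Col6a5 in KO_alpha3 81) are not drawn. Col4a1, Col1a2 and Col3a1 lie highest, with means of 139, 117 and 104 CPM per kilobase, and Col6a4, Col6a5, Col10a1 and Col17a1 lie lowest.

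Collagens took 0.338% of the counts in KO_alpha3 81, the lowest library, and 0.711% in WT_beta 401, the highest. Their summed level was 3437 to 5980 CPM in KO_alpha3, 5139 to 6102 CPM in KO_beta, 4933 to 6826 CPM in WT_beta and 4540 to 6339 CPM in WT_alpha3. The groups overlapped, with means of 4920 ± 1196 CPM in KO_alpha3 and 5566 ± 435 CPM in KO_beta, against 5495 ± 819 CPM in the 8 wild types (SD, n = 4, 4 and 8). Basement membrane chains summed to 1484 to 2125 CPM over the 16 libraries, interstitial fibrillar chains to 1082 to 3168 CPM, beaded filament and network chains to 303 to 860 CPM, fibril-associated chains to 145 to 430 CPM, cartilage chains to 258 to 488 CPM and transmembrane chains to 43.8 to 83.1 CPM. KO_alpha3 81 was lowest in the fibrillar, beaded filament, fibril-associated, cartilage and transmembrane sums, and WT_alpha3 79 in the basement membrane sum.

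The spread between libraries differed widely from gene to gene. Col28a1 varied 41.3-fold between its lowest and its highest library, Col6a6 15.7-fold, Col4a4 9.74-fold, Col14a1 9.55-fold, Col19a1 9.44-fold and Col20a1 8.71-fold. Col18a1 and Col4a2 varied least, 1.603-fold and 1.56-fold. Col6a6, a type VI chain, and Col4a4 were scarce, with means of 4.44 and 3.17 CPM.

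Against the globin ratio, 23 of the 43 tested collagens had a slope past the threshold in edgeR's quasi-likelihood test with Benjamini-Hochberg adjustment, fitted within the 4 groups. In 22 of them the level was higher in later libraries (a negative slope) and in 1, Col20a1, it was higher in earlier libraries. Over all 15641 genes tested the ratio was followed by 46.7%, with 26.1% higher in later and 20.5% higher in earlier libraries, so the count of collagens in either direction was close to that of all genes, while 51.2% of the collagens were higher in later libraries. The median slope of the 43 collagens was -0.22 in log2 CPM per unit of the log2 ratio, and that of all genes was -0.005. DESeq2 gave 25 collagens, 24 of them higher in later libraries, where 36.5% of all genes passed and 18.4% were higher in later ones. With upper quartile scaling 4044 genes had a positive and 3449 a negative slope, in place of 3212 and 4086, and 22 collagens passed.

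**Figure D2:**
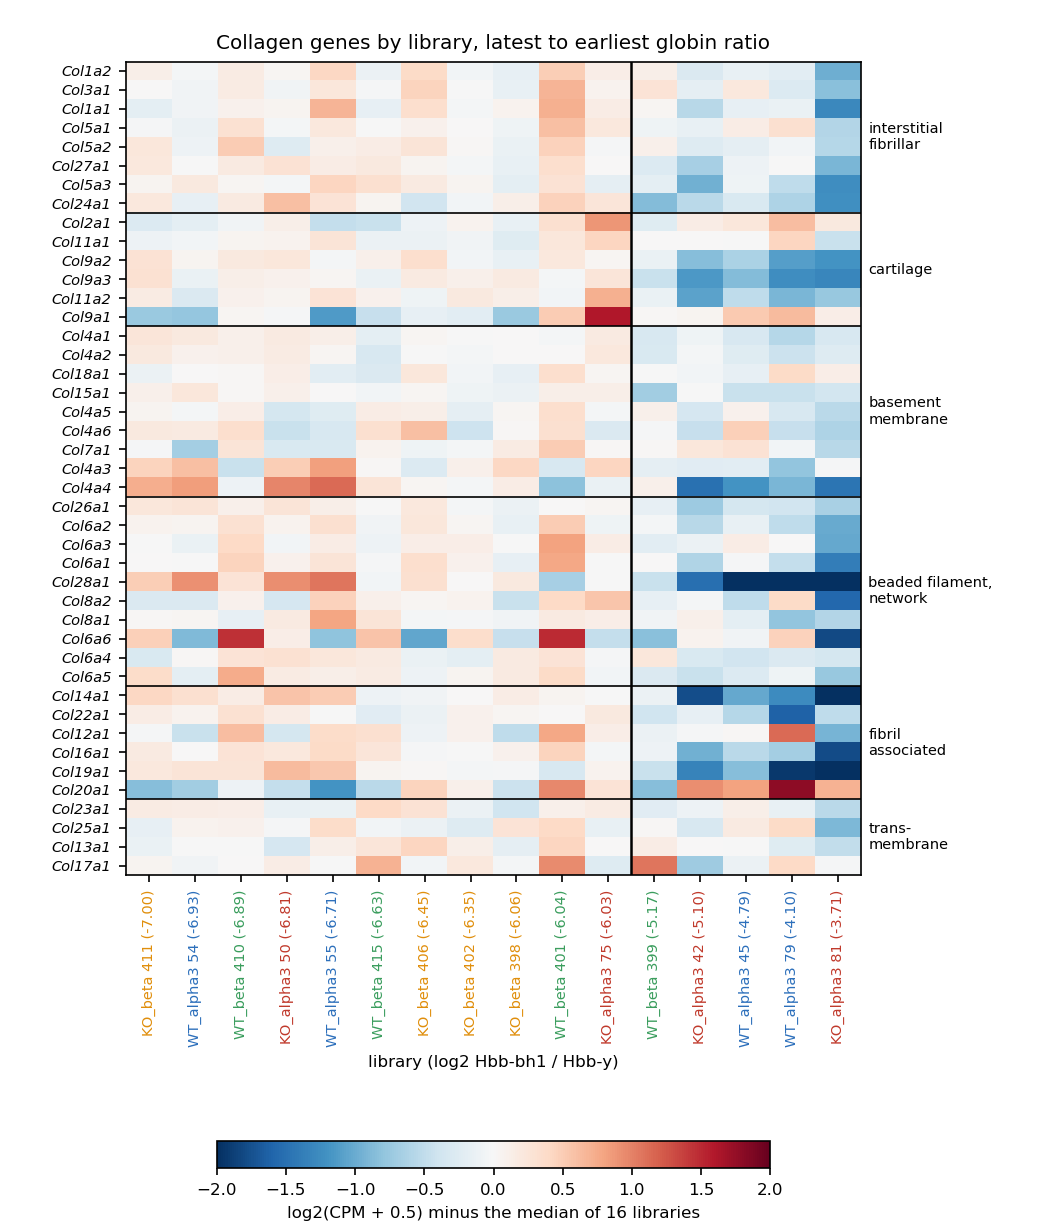
Log2(CPM + 0.5) of the 43 tested collagens minus each gene's median over 16 libraries (colour), columns ordered from the latest to the earliest library by the log2 ratio of Hbb-bh1 to Hbb-y given in brackets, rows grouped by class. Right of the line stand the 5 earlier libraries, between -5.17 and -3.71, in which Col28a1, Col14a1, Col19a1, Col16a1, Col9a2 and Col9a3 are mostly blue and Col20a1 is mostly red.

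Col28a1 showed the steepest negative slope and Col20a1 the only positive slope past the threshold, so a stretch of each promoter is shown. The sequences are RefSeq's, build GRCm38.p6, on the gene's strand, 5′ to 3′. Capitals mark the letters ACAAAG or their reverse complement CTTTGT, the core that Sox factors are known to bind. Sox10 is among the Sox factors that glial cells express, and binding was not tested here.
Col28a1: tgagtaattgcaACAAAGagcaatttgtcc
Col20a1: tagctgagggtcCTTTGTtcagtgggatgc
The Col28a1 window lies at chr6:8192817-8192846 on the minus strand, with its motif 217 bases before the annotated start. The Col20a1 window lies at chr2:180986310-180986339 on the plus strand, with its motif 213 bases before the start. On either strand the letters ACAAAG were found in 18.7% of 32851 promoters of 300 bases and in 5 of the 35 collagen genes with a promoter in the table (14.3%): Col3a1, Col10a1, Col17a1, Col20a1 and Col28a1. CCAAT, the box bound by the factor NF-Y and long described in the Col1a2 promoter, was in 37.4% of all promoters and in 13 of the 35 collagen genes (37.1%). Both collagen shares were at or under those of all promoters.

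Col28a1 encodes a beaded collagen that is known in the mouse from peripheral nerve, around Schwann cells. In the 11 later libraries it lay at 57.2 to 191 CPM with a median of 110 CPM. In the 5 earlier libraries it lay at 66.6 CPM in WT_beta 399, 31.7 CPM in KO_alpha3 42, 19.9 CPM in WT_alpha3 45, 4.63 CPM in WT_alpha3 79 and 9.69 CPM in KO_alpha3 81. Apart from WT_beta 399, which lay above WT_beta 401 (57.2 CPM), the 5 earlier libraries were below all later ones. The slope was -1.32 ± 0.16 (log2 CPM per unit of the log2 ratio, SE; adjusted p = 4.42e-05, edgeR's quasi-likelihood test). It was the one collagen that also passed among the 11 later libraries alone, at -0.79 (adjusted p = 0.042, edgeR).

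Among the fibril-associated chains outside cartilage, 4 of 6 were higher in later and 1 in earlier libraries, beside 26.1% and 20.5% of all genes. Col19a1 lay at 10.9 to 21.7 CPM in the 11 later libraries (median 14.4 CPM). In the 5 earlier ones it lay at 9.97, 5.15, 7.45, 3.25 and 2.30 CPM in WT_beta 399, KO_alpha3 42, WT_alpha3 45, WT_alpha3 79 and KO_alpha3 81. The 2 sets did not overlap, and the slope was -0.84 ± 0.09 (adjusted p = 2.01e-05, edgeR). Col14a1, a chain that binds fibrils of type I collagen, lay at 119 to 191 CPM in the later libraries (median 142 CPM). In the same order the earlier libraries held 118.5, 37.0, 62.5, 53.0 and 20.01 CPM of it. Again the sets did not overlap, although WT_beta 399 came close to the lowest later library, WT_beta 415 with 119.2 CPM; the slope was -0.73 ± 0.11 (adjusted p = 0.000166, edgeR).

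Col16a1 lay at 43.1 to 60.4 CPM in the later and 12.4 to 41.2 CPM in the earlier libraries, with a slope of -0.44 ± 0.07 (adjusted p = 0.000207, edgeR). Col22a1, a chain known from tissue junctions, lay at 79.3 to 114 CPM in the later and 29.9 to 83.0 CPM in the earlier libraries, with a slope of -0.35 ± 0.06 (adjusted p = 0.000399, edgeR). Col20a1 ran the other way. It lay at 4.02 to 19.5 CPM in the later libraries with a median of 7.12 CPM, and at 5.21, 19.2, 17.5, 35.0 and 16.2 CPM in WT_beta 399, KO_alpha3 42, WT_alpha3 45, WT_alpha3 79 and KO_alpha3 81. The sets overlapped, WT_beta 399 lying under the median of the later libraries; the slope was 0.65 ± 0.19 (adjusted p = 0.0115, edgeR), and it was not past the threshold without WT_alpha3 79. Col12a1, which binds fibrils under tension, had a slope of 0.04 ± 0.12, not past the threshold.

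**Figure D3:**
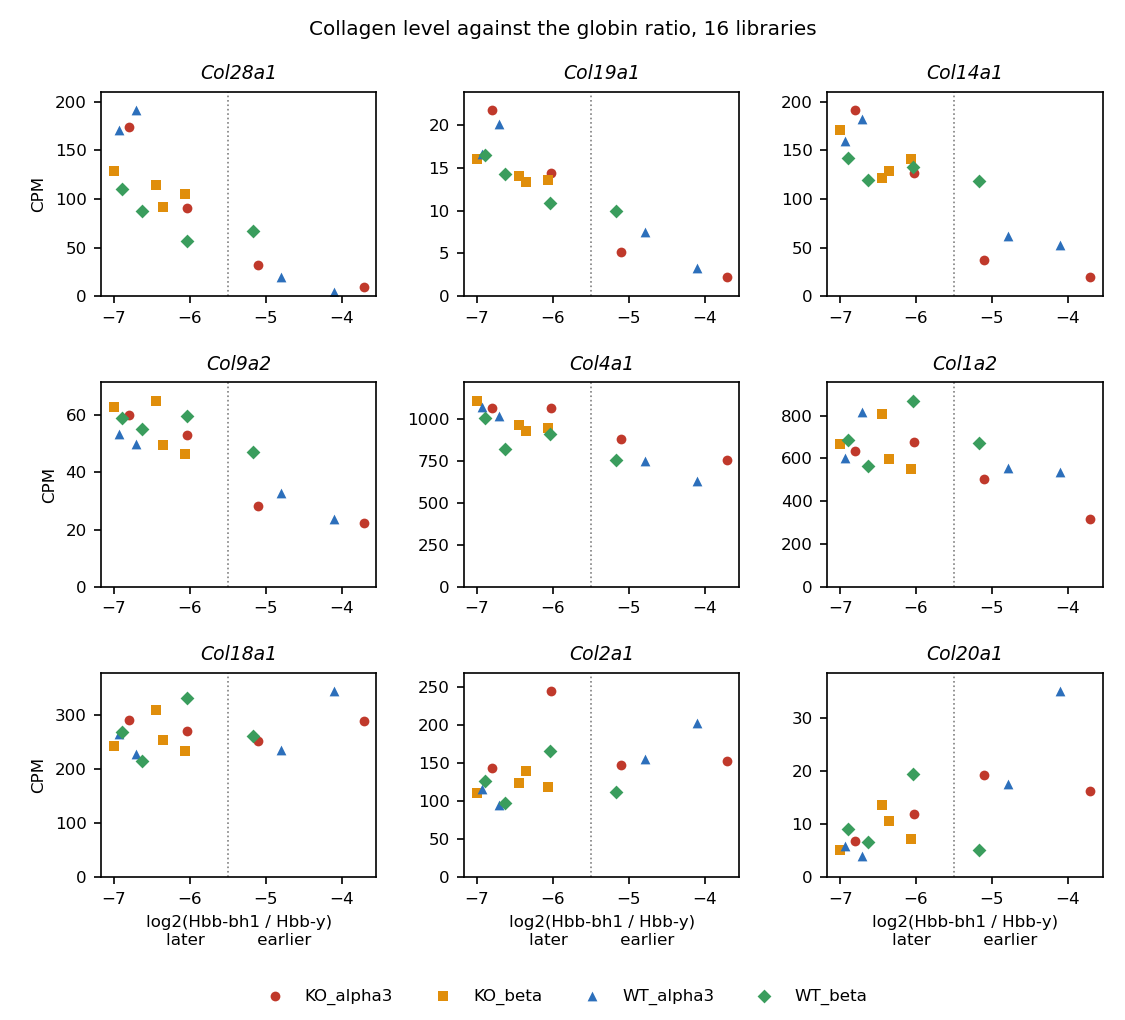
CPM of 9 collagens (vertical axis, from 0) against the log2 ratio of Hbb-bh1 to Hbb-y (horizontal axis, later libraries to the left), 1 point per library, colour and shape by group; the dotted line at -5.5 parts the 11 later from the 5 earlier libraries. Col28a1, Col19a1 and Col14a1 fall towards the right, with slopes of -1.32, -0.84 and -0.73, Col18a1 and Col2a1 show no slope past the threshold, and Col20a1 climbs, with a slope of 0.65.

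The cartilage class did not move as 1 block. Its fibril-forming chain Col2a1, which makes up the bulk of cartilage collagen, lay at 94.9 to 244 CPM in the later and 112 to 203 CPM in the earlier libraries, and its slope of 0.13 ± 0.09 did not pass (adjusted p = 0.233, edgeR). Col11a1, its partner in cartilage fibrils, had a slope of -0.04 ± 0.06 and Col9a1 one of 0.25 ± 0.18, neither past the threshold. The other 2 chains of type IX collagen, which coats cartilage fibrils, were higher in later libraries. Col9a2 lay at 46.2 to 64.9 CPM in the later libraries, against 47.0, 28.3, 32.8, 23.6 and 22.2 CPM in WT_beta 399, KO_alpha3 42, WT_alpha3 45, WT_alpha3 79 and KO_alpha3 81, with a slope of -0.40 ± 0.05 (adjusted p = 4.12e-05, edgeR). Only WT_beta 399 reached the range of the later libraries. Col9a3 lay at 34.1 to 46.3 CPM in the later and 14.8 to 27.1 CPM in the earlier libraries, without overlap, with a slope of -0.45 ± 0.06 (adjusted p = 9.97e-05, edgeR). Col11a2 had a slope of -0.33 ± 0.10 (adjusted p = 0.012, edgeR), which did not pass without KO_alpha3 81, WT_alpha3 55 or WT_alpha3 79.

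The chains of type IX also stood in unequal ratios. Per length, the ratio of Col9a1 to Col9a2 was 0.0489 to 0.349 in the later and 0.125 to 0.390 in the earlier libraries, and over the 16 libraries it varied 7.98-fold. Col9a2 to Col9a3 stayed between 1.136 and 1.81. Of the cartilage markers, Matn1 reached at most 3.14 CPM and Comp at most 4.64 CPM, both in KO_alpha3 75. The sum of the whole list, which includes Sox5, Sox6 and Sox9, was highest in WT_alpha3. It reached 106 CPM there, against at most 92.2 CPM in KO_alpha3. Of the 8 cartilage markers tested, Sox5, Sox6 and Sox9, which glial and other cells also express, were higher in earlier libraries, and Matn4 was higher in later ones. In KO_alpha3 75, Acan reached 8.71 CPM, against at most 2.27 CPM in every other library, and Col2a1 and Col9a1 were highest of all libraries with 244 and 24.2 CPM. The part of cartilage in the values of that library was not tested.

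Of the 9 basement membrane chains, 5 were higher in later libraries, beside 26.1% of all genes. Col4a1 and Col4a2, the chains of the common type IV network, start 21 bases apart on opposite strands of chromosome 8. Col4a1 lay at 820 to 1110 CPM in the later libraries (median 1009 CPM), against 755, 884, 750, 633 and 755 CPM in WT_beta 399, KO_alpha3 42, WT_alpha3 45, WT_alpha3 79 and KO_alpha3 81. Only KO_alpha3 42 reached the later range; the slope was -0.22 ± 0.03 (adjusted p = 4.72e-05, edgeR). Col4a2 had a slope of -0.16 ± 0.03 (adjusted p = 0.000819, edgeR), and the ratio of Col4a1 to Col4a2 per length stayed at 1.49 to 1.80 in all 16 libraries. Col15a1, which lies at the outer face of basement membranes, had a slope of -0.22 ± 0.04 (adjusted p = 0.000525, edgeR). Col18a1, the source of endostatin, lay at 215 to 331 CPM in the later and 236 to 344 CPM in the earlier libraries, with no slope past the threshold (0.06 ± 0.05, adjusted p = 0.341, edgeR).

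Col4a3 and Col4a4, the chains of the kidney filter's basement membrane, also start side by side, 72 bases apart on chromosome 1. Both were scarce: Col4a3 lay at 2.02 to 5.51 CPM in the later and 1.48 to 2.88 CPM in the earlier libraries, and Col4a4 at 1.46 to 7.01 and 0.72 to 3.21 CPM. Their slopes were -0.34 ± 0.10 (adjusted p = 0.013, edgeR) and -0.84 ± 0.16 (adjusted p = 0.000819, edgeR). Their ratio per length was 0.81 to 1.83 in the later libraries. It was 4.00, 2.88 and 4.53 in KO_alpha3 42, WT_alpha3 45 and KO_alpha3 81, and 1.31 and 0.93 in WT_alpha3 79 and WT_beta 399. The fewest reads behind it were 30 for Col4a3 and 18 for Col4a4. The slope of Col4a3 did not pass without WT_alpha3 79. Col4a5 and Col4a6, the pair of the X chromosome with starts 1309 bases apart, had slopes of -0.05 ± 0.05 and -0.08 ± 0.10, and neither passed.

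Of the 8 interstitial fibrillar chains, 4 were higher in later libraries, beside 26.1% of all genes, and all 8 slopes were negative. Col1a2 lay at 549 to 869 CPM in the later and 315 to 670 CPM in the earlier libraries, with a slope of -0.20 ± 0.07 (adjusted p = 0.0256, edgeR), which passed in 7 of the 16 fits that each left out 1 library. It did not pass without KO_alpha3 42, 50, 75 or 81, WT_alpha3 45, 55 or 79, or KO_beta 398 or 402. Col1a1, its partner in type I collagen, had a slope of -0.25 ± 0.10 and Col3a1 one of -0.12 ± 0.07; neither passed (adjusted p = 0.0504 and 0.217, edgeR). Col24a1, Col5a3 and Col27a1 had slopes of -0.46 ± 0.10, -0.35 ± 0.06 and -0.23 ± 0.06. Col5a3 lay at 6.03 to 9.59 CPM in the later and 2.67 to 6.61 CPM in the earlier libraries (adjusted p = 0.000518, edgeR). Col27a1 did not pass without KO_alpha3 50 or KO_alpha3 81. The ratio of Col1a1 to Col1a2 per length of the principal transcript was 0.62 to 0.94, and its size depends on that choice of length.

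Of the 10 beaded filament and network chains, 6 were higher in later libraries, beside 26.1% of all genes, and all 10 slopes were negative. Besides Col28a1, Col26a1 lay at 173 to 225 CPM in the later and 114 to 168 CPM in the earlier libraries, without overlap, with a slope of -0.26 ± 0.04 (adjusted p = 0.000187, edgeR). Of the type VI chains, which fibroblasts and Schwann cells deposit around fibrils and basement membranes, not all passed. Whether their slopes differ from each other was not tested. Col6a2 and Col6a1 had slopes of -0.27 ± 0.05 and -0.29 ± 0.08, both past the threshold, while Col6a3 had one of -0.14 ± 0.09, not past it (adjusted p = 0.214, edgeR). Col6a1 did not pass without KO_alpha3 81. Col8a1 and Col6a5 also passed, at -0.29 ± 0.07 and -0.64 ± 0.21. Col8a1 did not pass without WT_alpha3 79, and Col6a5, at under 1 CPM in every library, did not pass without KO_alpha3 50, KO_alpha3 81, WT_alpha3 55, WT_beta 399 or WT_beta 410.

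Of the 4 transmembrane collagens, 0 passed in edgeR's test of the slope, beside 46.7% of all genes, and 1 had an unadjusted p under 0.05. Col23a1 had a slope of -0.13 ± 0.06 (adjusted p = 0.0726, edgeR). Col25a1, a collagen of neurons that motor axons need to enter muscle in the mouse, had one of -0.08 ± 0.07, and Col13a1, known from the neuromuscular junction, one of -0.06 ± 0.07. Col25a1 lay at 11.5 to 18.4 CPM in the later and 7.18 to 18.1 CPM in the earlier libraries.

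**Figure D4:**
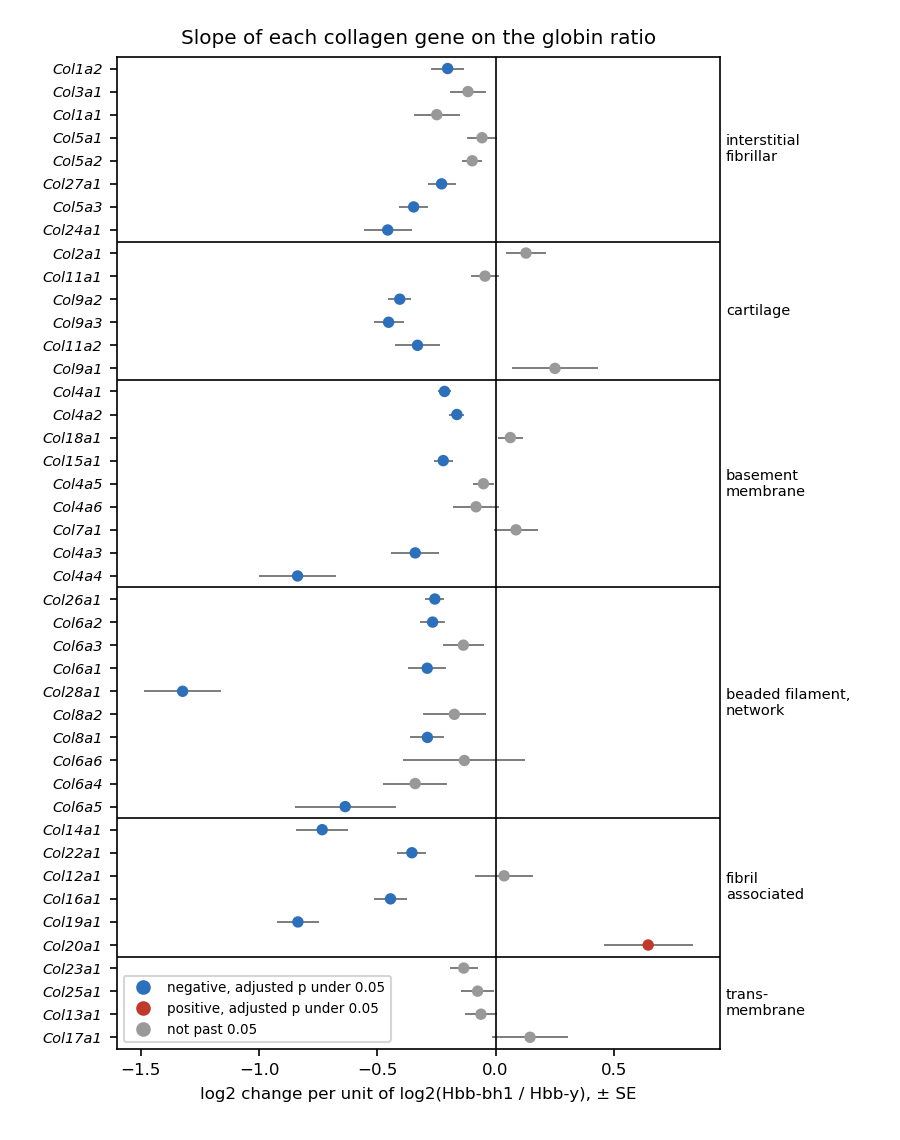
Slope of each tested collagen on the log2 ratio of Hbb-bh1 to Hbb-y, with its SE, by class; a negative slope means a higher level in later libraries. Blue and red mark adjusted p under 0.05 in edgeR's test: 22 slopes are negative, from Col28a1 at -1.32 to Col4a2 at -0.16, and 1, Col20a1 at 0.65, is positive.

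In all, 5 collagens did not overlap between the 11 later and the 5 earlier libraries, being higher in each later one: Col9a3, Col14a1, Col16a1, Col19a1 and Col26a1. Among all genes tested, 2.65% did so. In the α3 line alone (KO_alpha3 and WT_alpha3), which holds 4 of the 5 earlier libraries, 22 of 41 tested collagens passed, 21 of them higher in later libraries, where 6586 genes passed in all. In the β1 line alone (KO_beta and WT_beta), 1 of 43 passed, Col19a1, at -0.37 (adjusted p = 0.044, edgeR), where 693 genes passed in all. Among the 11 later libraries alone, 1 of 44 passed where 292 genes did, and the slopes had no common direction: 23 were positive and 21 negative, with a median of 0.02. In the fit of all 16 libraries, 26.1% of all genes were higher in later and 20.5% in earlier libraries. The share of all genes in these subsets was not worked out, so their collagen counts cannot be set apart from it.

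Markers of other cells were also set against the ratio. Over all genes, 26.1% were higher in later and 20.5% in earlier libraries. Of 12 glial markers, 7 were higher in later libraries, S100b, Dhh, Gfra3, Egfl8 and Cdh19 among them, and 0 were higher in earlier ones. S100b had a slope of -0.98 ± 0.14, whereas Sox10, present in the whole lineage, had one of 0.00 ± 0.04. The glial sum was 1725 to 2427 CPM in the later and 1440 to 2225 CPM in the earlier libraries. Of 20 fibroblast and meningeal markers, 5 were higher in later and 4 in earlier libraries, with sums of 952 to 1388 CPM in the later and 882 to 1253 CPM in the earlier ones. Of 14 endothelial and pericyte markers, 2 were higher in later and 0 in earlier libraries, and of 15 sensory neuron markers 8 were higher in later and 2 in earlier libraries. The mean log2 CPM of the glial list was 6.31 to 6.65 in the later and 5.67 to 6.05 in the earlier libraries, without overlap. A fit with that mean as a covariate can therefore hardly part it from the ratio. In that fit 0 collagens and 0 genes of all had a slope past the threshold, and the median slope of the collagens was -0.06. Col20a1, Col24a1 and Col4a4 had slopes of 0.80, -0.52 and -0.76 in that fit, against 0.65, -0.46 and -0.84 without the covariate. Col26a1 and Col9a2 had -0.003 and -0.017, against -0.26 and -0.40. None of these slopes passed with the covariate, so no difference between the genes is read from them. With the mean of the fibroblast list as a covariate, 25 of 43 collagens passed, 22 of them higher in later libraries, where 7631 of the 15641 genes passed in all. In bulk tissue, fewer cells of a type and less RNA per cell cannot be told apart.

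Of 32 genes of collagen synthesis and crosslinking, 11 were higher in later and 3 in earlier libraries, beside 26.1% and 20.5% of all genes. Adamts3, a protease that trims procollagen, had a slope of -0.80 ± 0.11, with 14.04 to 101 CPM over the 16 libraries. Pcolce2, which helps that trimming, had one of -0.40 ± 0.06, Colgalt2, which adds galactose to collagen, -0.43 ± 0.07, and P4ha3, a prolyl hydroxylase subunit, -0.35 ± 0.06. Each had an adjusted p of 0.000392 or less in edgeR's test. Of 11 receptors tested, 2 were higher in later and 0 in earlier libraries: Itga2, the α chain of a collagen integrin, at -0.52 ± 0.05, and Adgrg6, the receptor that Schwann cells need for myelination, at -0.17 ± 0.03. Of 6 degrading enzymes tested, 3 were higher in later (Ctsk, Mmp14, Mmp16) and 1, Fap, in earlier libraries.

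Of 15 laminins, nidogens and other basement membrane partners, 9 were higher in later and 2 in earlier libraries, with a median slope of -0.19. Over all genes the shares were 26.1% and 20.5%. Lama2, the laminin chain of the Schwann cell basement membrane, had a slope of -0.57 ± 0.06 and ran from 26.0 to 103 CPM. Lamb1, Lama4 and Lamb2 had slopes of -0.26 ± 0.03, -0.20 ± 0.03 and -0.22 ± 0.03. Of 8 small leucine-rich proteoglycans tested, which bind fibrils, Ogn and Aspn were higher in later libraries (-0.79 ± 0.14 and -0.93 ± 0.17), and Prelp and Lum in earlier ones (0.69 ± 0.12 and 0.23 ± 0.06). All named here passed in edgeR's test at an adjusted p of 0.05.

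Loss of importin α3 gave no collagen past the threshold. Against the 8 wild types, 0 of 43 collagens passed in edgeR's test, 11 had an unadjusted p under 0.05 where 1696 of the 15641 genes did, and DESeq2 also gave 0. Over all genes 0.00639% passed with edgeR, which is 1 gene, Kpna4 itself, and 0.649% with DESeq2. Of the 43 log2 fold changes, 33 were negative and 10 positive, with a median of -0.30, beside a median of -0.01 over all genes. All 8 interstitial fibrillar, all 10 beaded filament and network and all 4 transmembrane values were negative, with medians of -0.35, -0.36 and -0.42, whereas 5 of the 9 basement membrane values were positive, with a median of 0.04.

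Col25a1 had the lowest p of this comparison. It lay at 10.99, 13.7, 12.5 and 7.18 CPM in KO_alpha3 42, 50, 75 and 81, against 13.3 to 18.4 CPM with a median of 15.3 CPM in the 8 wild types. The groups overlapped in KO_alpha3 50 only, and the log2 fold change was -0.52 ± 0.16 (SE, adjusted p = 0.330, edgeR). Col5a2, a chain that limits the width of type I fibrils, lay at 99.9, 101, 117 and 80.3 CPM in KO_alpha3 42, 50, 75 and 81, against 106 to 170 CPM with a median of 129 CPM in the wild types. KO_alpha3 75 overlapped with the wild types, and the log2 fold change was -0.41 ± 0.14 (adjusted p = 0.355, edgeR). The abundant Col1a1, Col1a2 and Col3a1 had log2 fold changes of -0.47 ± 0.25, -0.31 ± 0.19 and -0.39 ± 0.18, with KO_alpha3 81 the lowest of all 16 libraries in each, at 215, 315 and 310 CPM. Col4a1 and Col4a2 had 0.11 ± 0.14 and 0.15 ± 0.12, and Col2a1 had 0.36 ± 0.20.

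Of the marker lists, those of fibroblasts, muscle, epidermis, macrophages, sympathetic ganglion, spinal cord, liver and erythroid cells had mostly negative values in KO_alpha3 too. None of their genes passed the threshold in edgeR's test. All 8 sympathetic, 9 spinal cord, 6 liver and 8 erythroid markers tested were negative, with medians of -3.04, -2.56, -3.03 and -1.14. Of these, 4, 6, 5 and 0 had an unadjusted p under 0.05. Of 20 fibroblast and meningeal markers, 18 had a negative log2 fold change (median -0.34), with a sum of 882 to 1211 CPM in KO_alpha3, against 1073 to 1388 CPM in the 8 wild types. All 19 skeletal muscle markers tested (median -1.61), all 11 of epidermis (-1.37) and all 12 of macrophages (-0.45) were negative as well, with 17, 9 and 6 at an unadjusted p under 0.05. Their sums were 38.6 to 312, 17.3 to 81.4 and 73.6 to 116 CPM in KO_alpha3, against 120 to 1255, 44.9 to 102 and 101 to 202 CPM in the wild types. The other way, 5 of 8 cartilage markers (median 0.55), 7 of 12 glial markers (0.15), 10 of 15 sensory neuron markers (0.04) and 8 of 14 endothelial and pericyte markers (0.003) were positive. Of the positive cartilage markers, Acan, Hapln1 and Comp were high in KO_alpha3 75 alone, at 8.71, 16.1 and 4.64 CPM. The other KO_alpha3 libraries held 0.08 to 1.47, 2.37 to 4.80 and 0.40 to 0.46 CPM of them. With the mean of the fibroblast list as a covariate, the median over the collagens was -0.004, with 19 positive and 24 negative values. It was -0.21 with the globin ratio as a covariate, -0.19 against WT_alpha3 alone and -0.10 among the 11 later libraries. It was -0.30 with DESeq2, and -0.31 with 36 of 43 negative without WT_alpha3 45 and 79 and WT_beta 399 and 401. 

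The pathway lists of this comparison held 0 genes past the threshold in edgeR's test; 15 of their 72 tested entries had an unadjusted p under 0.05, beside 1696 of the 15641 genes. P4ha2 and P4ha1, subunits of the enzyme that hydroxylates collagen prolines, had log2 fold changes of 0.41 ± 0.12 and 0.20 ± 0.07. Fap, a protease of activated fibroblasts, had -1.07 ± 0.32, Mmp9, a gelatinase, -0.68 ± 0.35, and Mrc2, a receptor that takes up collagen fragments, -0.39 ± 0.15. Adgrg1, a receptor for type III collagen, had 0.26 ± 0.08, and the laminin chains Lama3 and Lamb2 had -0.79 ± 0.37 and -0.29 ± 0.14. Among the proteoglycans Dcn had -0.65 ± 0.25 and Prelp 1.21 ± 0.48. The adjusted p of these 10 genes was 0.330 or more.

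Loss of the importin β1 3′ untranslated region gave no collagen past the threshold either. Against the same 8 wild types, 0 of 43 passed, 0 had an unadjusted p under 0.05 where 349 of all genes did, and DESeq2 gave 0. Of all genes, 0% passed with edgeR and 0.00488% with DESeq2. Of the 43 values 26 were negative and 17 positive, with a median of -0.04. Col12a1 had the lowest p: it lay at 40.0, 60.1, 53.1 and 55.8 CPM in KO_beta 398, 402, 406 and 411, against 41.7 to 125 CPM with a median of 72.5 CPM in the wild types, which overlapped (log2 fold change -0.54 ± 0.26, adjusted p = 0.932, edgeR). Col11a1 lay at 57.1, 64.2, 62.4 and 63.1 CPM in KO_beta 398, 402, 406 and 411, against 62.2 to 90.7 CPM with a median of 68.9 CPM in the wild types (-0.24 ± 0.13, adjusted p = 0.932, edgeR). The groups again overlapped. Col4a1 and Col4a2 had 0.18 ± 0.13 and 0.16 ± 0.11, and Col1a1 and Col3a1 -0.11 ± 0.24 and -0.08 ± 0.18. Beside these values, 15 of the 20 fibroblast markers were negative (median -0.14) and 11 of the 12 glial markers positive (median 0.20), and the KO_beta libraries were all among the 11 later ones. All 19 skeletal muscle, 12 macrophage, 9 spinal cord, 6 liver and 8 erythroid markers tested were negative, with medians of -0.62, -0.21, -1.51, -1.50 and -1.05. Of 8 sympathetic, 8 cartilage and 11 epidermal markers, 7 each were negative (medians -2.74, -0.40 and -0.13). Of 15 sensory neuron markers 13 were positive (median 0.16), and of 14 endothelial and pericyte markers 7 were. With the mean of the fibroblast list as a covariate, 29 of the 43 collagens were positive and 14 negative, with a median of 0.05, so the sign of the median turned. With the globin ratio as a covariate 33 were negative (median -0.13), against WT_beta alone 30 (median -0.11), and among the 11 later libraries 38 of 44 (median -0.15). Against WT_beta alone, knockout and sex cannot be told apart, with Y-linked genes over 50 CPM in 4 KO_beta and 0 WT_beta libraries. The part of the glial markers in the values was not tested.

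The pathway lists held 0 genes past the threshold in KO_beta as well, and 1 of their 72 tested entries, Fap, had an unadjusted p under 0.05 (-0.74 ± 0.31, adjusted p = 0.932, edgeR). Adamts14, a procollagen protease, had -0.52 ± 0.27, Ddr1, a collagen-binding kinase, -0.19 ± 0.09, the laminin chain Lama1 -0.76 ± 0.37 and Agrn 0.19 ± 0.10. P3h3, a prolyl hydroxylase, had -0.18 ± 0.12, Adgrg1 0.14 ± 0.08, Mmp9 -0.36 ± 0.35, Dcn -0.32 ± 0.25 and Prelp -0.79 ± 0.53.

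**Figure D5:**
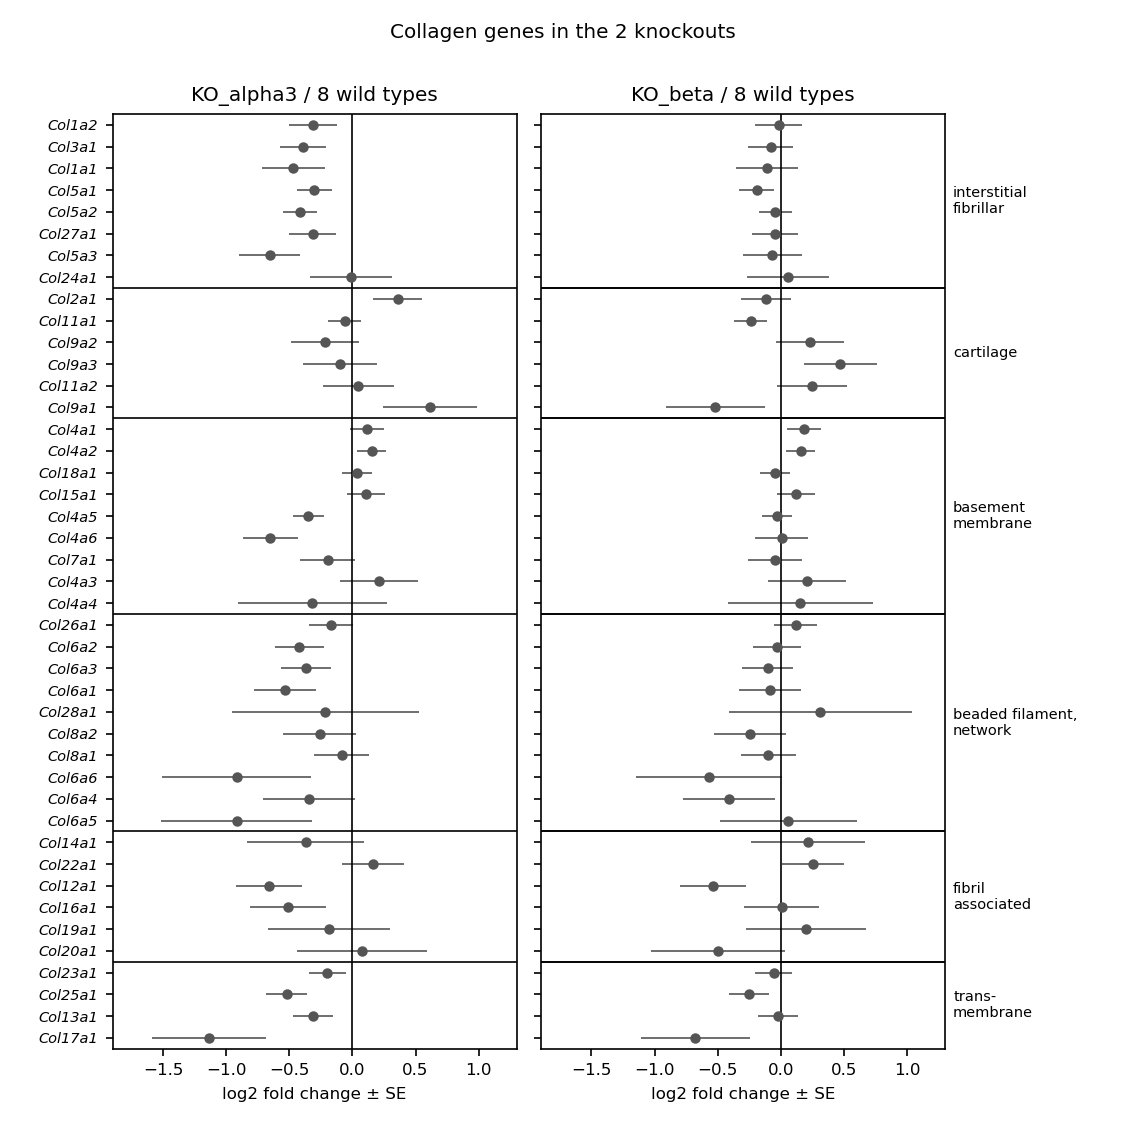
Log2 fold change of each tested collagen, with its SE, in KO_alpha3 (left) and KO_beta (right) against the same 8 wild types, by class. No value passed an adjusted p of 0.05; the medians are -0.30 in KO_alpha3 and -0.04 in KO_beta.

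The knockout effects were also set against each other, each against the wild types of its own line. Y-linked genes summed to over 50 CPM in 4 KO_beta and 0 WT_beta libraries, so the β1 effect cannot be told from sex here. Of 43 collagens, 0 differed in edgeR's test, 0 had an unadjusted p under 0.05, and DESeq2 gave 0, where 0.00639% of all genes passed with edgeR and 0.0293% with DESeq2. Col9a1 had the lowest p (1.19 ± 0.64, KO_alpha3 effect minus KO_beta effect, adjusted p = 0.996). It lay at 7.95, 7.498, 24.2 and 8.40 CPM in KO_alpha3 42, 50, 75 and 81, against 3.20 to 12.1 CPM in WT_alpha3, and at 4.34 to 6.72 CPM in KO_beta, against 5.39 to 11.01 CPM in WT_beta. KO_alpha3 75, the library highest in Acan, Matn1, Hapln1 and Comp, alone lay above all others. The sum of the whole cartilage marker list was highest in WT_alpha3, at 106 CPM, against at most 92.2 CPM in KO_alpha3.

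Between the wild types of the 2 lines, WT_beta against WT_alpha3, 0 of 43 collagens passed in edgeR's test, 3 had an unadjusted p under 0.05 where 824 of the 15641 genes did, and DESeq2 gave 0, where 0.0192% of all genes passed with edgeR and 0.147% with DESeq2. Col5a2 had the lowest p. It lay at 129, 166, 170 and 133 CPM in WT_beta 399, 401, 410 and 415, against 106, 112, 128 and 116 CPM in WT_alpha3 45, 54, 55 and 79, so that the lines did not overlap (log2 fold change 0.37 ± 0.13, adjusted p = 0.823, edgeR). Col17a1, at 0.52 to 1.62 CPM in WT_beta and 0.44 to 0.84 CPM in WT_alpha3, had 1.07 ± 0.41 (adjusted p = 0.857, edgeR). All 4 WT_alpha3 and 0 of 4 WT_beta libraries had Y-linked genes over 50 CPM in sum, so line and sex cannot be told apart here.

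Counting could mix reads where genes overlap, because strand use is not given in the sources used here. The largest overlaps were 6.07% of the exon length of Col9a3, with Tcfl5 on the opposite strand, and 5.65% of that of Col4a3, with C430014B12Rik on the opposite strand. Every other collagen shared 1.90% or less of its exon length with another gene.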

How the data were processed

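Per the labels, RNA came from lumbar dorsal root ganglia and was sequenced after polyA selection. Named in the submitters' processing notes, without roles, are mm10, HTSeq 0.6.1p1, TopHat2 2.0.10, DESeq2 1.6.3, cutadapt and bcl2fastq 2.17.1.14. The authors deposited raw read counts per gene symbol, and these were analysed here; strand use in counting is not given in the sources used here.

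Symbols made of Col, a number, a and a number were taken as collagens and put in 6 classes. Gene positions and transcript lengths came from GENCODE M21 on mm10. Counts were fitted with edgeR 4.0.16 in R 4.3.3 (TMM scaling, filterByExpr with a minimum count of 10 and a minimum total of 15, quasi-likelihood tests, 2-sided, Benjamini-Hochberg adjustment over the 15641 genes kept, threshold 0.05). Levels are CPM after TMM scaling. Each knockout was tested against the 8 wild types taken as 1 group. The comparison of WT_beta with WT_alpha3 and that of the knockout effects used a model with all 4 groups. The slope on log2(Hbb-bh1 / Hbb-y) had the 4 groups as terms.

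Genes were named by a rule: the 3 most abundant members of each class, up to 10 members with the lowest p among those past the threshold of a test or the 2 lowest where none passed, and 2 to 4 genes of each list of related genes. Other members are named for completeness. Members, classes, lists and the globin ratio were chosen with earlier results of these data known, and the split of the libraries at a log2 ratio of -5.5 was set after the ratios were seen. Alternatives were other scalings and filters, DESeq2 1.42.0, limma-voom (limma 3.58.1), covariates, subsets of libraries and leaving out each library in turn. On simulated counts for the importin α3 comparison (15554 genes) the test recovered 40% of changes of 0.5 on the log2 scale and 84% of changes of 1 on that scale, with 5 false calls. For the slope (15553 genes) it recovered 89% and 97% of changes of these sizes per unit of the log2 ratio, with 6 false calls. The changed genes were drawn only from those with a mean over 5 CPM. Recovery of scarcer genes and of smaller changes was not tested. Some single genes of the marker lists are not reported here.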

Additional observations from a re-analysis of the deposited data

Results flagged for a closer look

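In 3 of 104 groups of 4 libraries, 1 library stood far from the other 3 by Dixon's criterion, which chance alone meets in about 1 in 20 groups; 26 named collagens were looked at in 4 groups each. Col2a1 lay at 244 CPM in KO_alpha3 75, against 144 to 152 CPM in the other 3 KO_alpha3 libraries. Col9a1 lay at 24.2 CPM in the same library, against 7.498 to 8.40 CPM in the others. That library was also highest of all 16 in Acan, at 8.71 CPM, and in Matn1, at 3.14 CPM. The sum of the whole cartilage marker list was highest in a WT_alpha3 library, at 106 CPM, against at most 92.2 CPM in KO_alpha3. Col1a1 lay at 849 CPM in WT_alpha3 55, against 471 to 502 CPM in the other 3 WT_alpha3 libraries.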

How the results depend on the processing

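No paired analysis was possible because no library number is shared between groups. No collagen passed in either knockout comparison, in the wild-type comparison or in the difference of effects under any alternative run. DESeq2 raised the genes past the threshold to 133 in KO_alpha3, 1 in KO_beta, 30 between wild types and 6 in the difference of effects, and the globin ratio as a covariate gave 5 between wild types. Leaving out each library in turn gave 1 to 124 genes in KO_alpha3 (124 without KO_alpha3 50), 2 to 7 between wild types (7 without KO_alpha3 81, 5 without KO_alpha3 50) and 1 to 3 in the difference of effects (3 without KO_alpha3 50, 2 without KO_alpha3 75). For the slope, the count of collagens was 19 to 26 over the 16 fits that left out 1 library, 18 on the rank of the ratio and 11 on log2(Hba-x / Hbb-y), with 2991 genes. It was 0 with the glial covariate (0 genes), 1 in the β1 line alone (693 genes) and 1 in the 11 later libraries alone (292 genes). The glial covariate did not overlap between later and earlier libraries, so that fit can hardly part it from the ratio. Without WT_alpha3 45 and 79 and WT_beta 399 and 401, 21 collagens and 4261 genes passed. Among the 22 negative slopes past the threshold, those that turned positive with the glial covariate, in the β1 line or in the later libraries were Col1a2 (0.091 with the glial covariate, 0.025 in the β1 line, 0.160 in the later libraries), Col6a2 (0.064 with the glial covariate, 0.041 in the later libraries), Col6a1 (0.107 with the glial covariate, 0.154 in the later libraries), Col11a2 (0.0099 with the glial covariate, 0.214 in the later libraries), Col8a1 (0.121 in the later libraries), Col4a3 (0.022 in the β1 line) and Col16a1 (0.000175 in the later libraries); the cause was not tested. The rank, Hba-x, later-library and glial settings were chosen after seeing the data. A planned ratio with Hba-a1 and Hba-a2 was not run because both have 0 counts in every library. Between values not past the threshold, signs changed in 12 of 247 KO_alpha3 and 21 of 234 KO_beta values under other settings. All 72 group means moved by less than 1 SD with scaling by library size. Depth limits Col6a4, Col6a5, Col10a1 and Col17a1, at 79 to 259 counts in all libraries together.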
